A study of Mus musculus with 9 samples.

Results

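Immediate early genes and heat shock genes were described in peritoneal macrophages of 3 origins. The set holds 34 listed genes, taken as the rows of the deposited count tables whose Ensembl identifier carries the listed symbol in GENCODE mouse release M21. All 34 were found among the 47729 identifiers of the tables: 28 are immediate early or other early response genes and 6 are heat shock genes. The study sequenced RNA from 9 libraries of macrophages sorted by flow cytometry from the peritoneal cavity of mice of the genotype Cx3cr1CreERT2-IRES-EYFP/+ Rosa26-stopfl-tdTomato/+. In these mice Cx3cr1, a gene of monocytes and some macrophages, drives EYFP and a Cre that tamoxifen activates, and Cre switches on a tdTomato reporter. The converted group (3 libraries) had received 2 ml of thioglycollate, which inflames the peritoneum and recruits monocytes from blood, and a tamoxifen diet for 10 weeks. For the resident group (3 libraries) the labels give no treatment of its own. The monocyte-derived group (3 libraries) was harvested 4 days after 2 ml of thioglycollate. Mice of all 3 groups were injected with complexes of 5 µg IL-4 and 25 µg anti-IL4 antibody every other day in the 4 days before harvest, a treatment that drives alternative activation of macrophages. The sort gates, the animals behind each library, their age and the time and temperature between harvest and lysis are not stated in the labels.

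Immediate early genes are transcribed within minutes of a stimulus and need no new protein for it, because factors such as SRF and CREB already sit on their promoters and are switched on by MAP kinases. Their products are transcription factors of the FOS, JUN, EGR and NR4A families, and brakes that end the response, such as dual-specificity phosphatases and the inhibitor of NF-kB. Heat shock genes encode chaperones that refold proteins, and the factor HSF1 induces some of them under stress. In macrophages both sets respond to microbial products, cytokines and adhesion, and both are known to respond to cell isolation and sorting as well.

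Each library had between 15220884 and 20496258 reads in genes, and levels are given as CPM, a gene's read count scaled to a common total of reads in genes, with library sizes adjusted by edgeR's TMM method. Markers of peritoneal macrophages (11 of 11 read in every group) summed to 7120 to 8720 CPM in converted, 7540 to 7840 CPM in resident and 3850 to 6560 CPM in monocyte-derived libraries. Monocyte markers summed to 251 to 308, 255 to 295 and 686 to 1700 CPM, and neutrophil markers to 10.5 to 20.4, 17.7 to 18.6 and 57.9 to 100 CPM, in the same order of groups. Monocyte-derived library 1 had the lowest macrophage sum (3850 CPM) and the highest monocyte sum (1700 CPM) of its group. B-cell markers (18 of 18 read in every group) summed to 147 to 293 CPM in converted, 1600 to 2080 CPM in resident and 49.1 to 104 CPM in monocyte-derived libraries. T-cell, NK-cell, eosinophil, mast-cell and dendritic-cell marker sums were also higher in every resident than in every converted library. Dendritic-cell markers reached 184 to 199 CPM in resident libraries against 22.7 to 82.7 CPM in converted ones. In resident libraries the eosinophil, mast-cell and dendritic-cell sums rested mostly on 1 gene each, Il5ra (mean 12.5 CPM), Hdc (90.7 CPM) and Cd209a (172 CPM). The eosinophil markers Epx and Prg2 had no read in any group. NK-cell markers summed to 20.6 to 31.3 CPM in resident and 22 to 112 CPM in monocyte-derived libraries. Sex-linked transcripts split the libraries too: Ddx3y, on chromosome Y, had 84.6 to 96.1 CPM in converted and resident libraries and no read in monocyte-derived ones. A harvest 4 days after thioglycollate, stated for the monocyte-derived group alone, and this split both separate that group from the others. The tamoxifen diet was given to the converted group alone. These cannot be told apart from origin. The labels number the libraries 1 to 3 and name no mouse for any of them. The p-values therefore cover the spread among libraries only, and that spread may be technical. These are bulk samples, in which fewer cells of a type and less RNA per cell cannot be told apart.

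Of the 32 tested genes of the set, 15 were called lower in converted than in resident macrophages and none higher. Over all tested genes 6.07% were called in this comparison. With B-cell markers as a covariate, as described below, 0 of the 32 were called. Those markers nearly follow the groups, with every resident library above all others, so that fit cannot separate them from group. Fos, Fosb, Jun, Junb, Jund and Egr1 were all lower in converted libraries, as were the phosphatases Dusp1, Dusp2 and Dusp5. Against monocyte-derived macrophages the set moved both ways, beside 50.7% of all tested genes called in either comparison. Dusp1, Btg2 and Nfkbia were higher in converted and resident libraries alike, while Egr2, Dusp5, Fosl2, Atf3 and Gadd45b were lower in both. Fos and Fosb were also called higher in both. For these genes the converted and monocyte-derived ranges overlapped, and the converted call ended under several alternatives given below. Of the 34 genes, 32 passed the filter on low counts, and each difference below is from edgeR's quasi-likelihood test over 13223 genes with Benjamini-Hochberg adjustment, called at an adjusted p under 0.05.

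In converted over resident libraries 15 of the 32 tested genes were called lower and 0 higher, beside 6.07% of all tested genes called (4.26% lower and 1.82% higher; over all genes 240 were higher and 563 lower, and 133 and 606 with upper-quartile scaling). At an unadjusted p under 0.05, 0 were higher and 23 lower, DESeq2 called 0 higher and 19 lower, and limma-voom called 0 higher and 16 lower. The ranges of the libraries did not overlap for 23 genes that were lower and 1 that was higher, beside 17.7% and 19.6% of all tested genes (37.3% in either direction). The median log2 difference was -0.73 over the 32 genes and 0.01 over all tested genes. The count called was 10 without resident library 1 or 3, 11 without resident library 2 and 20 without monocyte-derived library 1, with 0 called higher in each case.

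In converted over monocyte-derived libraries 9 of the 32 genes were called higher and 16 lower, beside 50.7% of all tested genes called (25.8% higher and 24.9% lower). In resident over monocyte-derived libraries 14 were higher and 10 lower, again beside 50.7% called (25.7% higher and 24.9% lower). The ranges of the libraries did not overlap for 5 higher and 15 lower genes in converted over monocyte-derived libraries, beside 28.6% and 27.7% of all tested genes (56.3% in either direction). In resident over monocyte-derived libraries these counts were 14 and 11, beside 30.6% and 28.9% (59.5% in either direction). Both comparisons share the monocyte-derived libraries. The median log2 difference over the 32 genes was -0.26 in converted and 0.23 in resident over monocyte-derived libraries, and -0.01 and 0 over all tested genes. The plot of fold changes shows the 3 comparisons gene by gene.

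**Figure D1:**
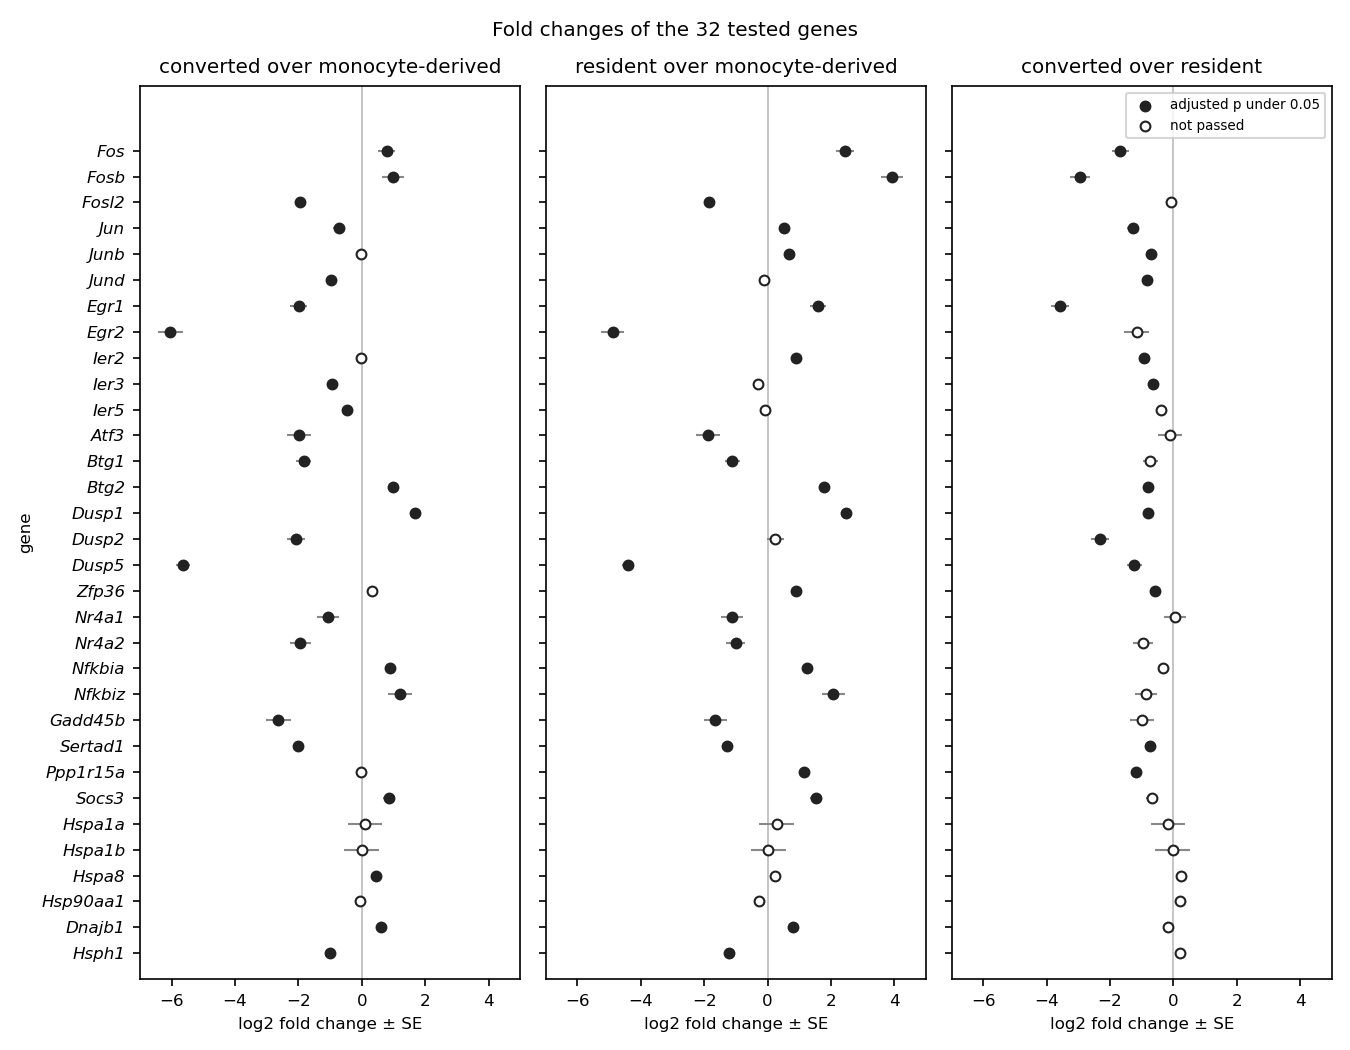
Log2 fold change (x axis, ± SE) of each of the 32 tested genes (rows) in converted over monocyte-derived, resident over monocyte-derived and converted over resident libraries, 3 libraries a group. Filled points have an adjusted p under 0.05 and open points do not. In converted over resident 15 filled points lie to the left of 0 and none to the right, while the other comparisons have filled points on both sides, with Egr2 and Dusp5 farthest to the left.

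The FOS proteins pair with JUN proteins to form the transcription factor AP-1. Fos (ENSMUSG00000021250, chr12:85473890-85477273 of GRCm38, plus strand) had 380, 172 and 302 CPM in converted, 892, 910 and 932 CPM in resident and 123, 170 and 205 CPM in monocyte-derived libraries. Every resident library lay above every other library, and the lowest converted library lay within the monocyte-derived range. Fos was 3.2-fold lower in converted than in resident libraries (log2 -1.68 ± 0.27 SE, adjusted p = 0.00824) and 5.48-fold higher in resident than in monocyte-derived ones (log2 2.45 ± 0.28 SE, adjusted p = 7.67e-05). In converted over monocyte-derived libraries it was 1.71-fold higher (log2 0.78 ± 0.26 SE, adjusted p = 0.034). That call ended without converted library 1 or 3 or monocyte-derived library 1 or 2, without the filter on low counts and in a fit of these 2 groups alone (adjusted p = 0.0692 to 0.129).

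Fosb (ENSMUSG00000003545, chr7:19302696-19310051, minus strand), a paralog of Fos, had the largest fold of the FOS family between converted and resident libraries. It had 7.53, 3.1 and 8.27 CPM in converted, 47.9, 48.8 and 48.7 CPM in resident and 2.24, 3.01 and 4.34 CPM in monocyte-derived libraries. The 3 resident libraries lay within 1 CPM of each other and far above the rest. Fosb was 7.69-fold lower in converted than in resident libraries (log2 -2.94 ± 0.32 SE, adjusted p = 0.00168) and 15.3-fold higher in resident than in monocyte-derived ones (adjusted p = 1.47e-05). In converted over monocyte-derived libraries, whose ranges overlap, it was 1.99-fold higher (adjusted p = 0.0381). That call ended when any library other than converted library 2 or monocyte-derived library 3 was left out, and with limma-voom, no low-count filter or a fit of these 2 groups (adjusted p = 0.0547 to 0.128). Fosl2, which encodes the FOS-related antigen FRA2, took the other course, with 27.5, 36.3 and 40.7 CPM in converted, 31.9, 40.4 and 38.4 CPM in resident and 144, 127 and 128 CPM in monocyte-derived libraries. It was 3.83-fold lower in converted (log2 -1.94 ± 0.15 SE, adjusted p = 4.26e-06) and 3.61-fold lower in resident than in monocyte-derived libraries (adjusted p = 5.88e-06). Converted and resident libraries overlapped for Fosl2, with a log2 difference of -0.08 ± 0.15 SE (adjusted p = 0.798).

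The promoter of Fos is shown because CREB and SRF, which act on it, are the textbook switches of immediate early genes. The window runs from 250 bases before to 50 bases after the gene start in RefSeq (GRCm38.p6, chr12:85473640-85473939, plus strand). Capitals mark 2 copies of TGACG, the core of the CREB site, 129 and 66 bases upstream of the start, and the TATA box TATAAA 33 bases upstream. These are matches of letters and not measured binding. No CArG box, the site of SRF, stood in this window, and bases farther upstream were not searched, so its absence from the promoter cannot be read from it.

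Fos: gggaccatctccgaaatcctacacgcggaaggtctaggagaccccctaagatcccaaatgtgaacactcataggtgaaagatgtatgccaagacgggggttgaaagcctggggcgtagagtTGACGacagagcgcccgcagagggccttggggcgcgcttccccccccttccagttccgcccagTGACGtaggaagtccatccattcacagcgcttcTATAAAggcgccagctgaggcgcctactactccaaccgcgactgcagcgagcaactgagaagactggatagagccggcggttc

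The JUN proteins are the other partners of AP-1, and all 3 genes were lower in converted than in resident libraries. Jun had 178, 121 and 212 CPM in converted, 382, 434 and 412 CPM in resident and 259, 277 and 314 CPM in monocyte-derived libraries. The 3 groups did not overlap, with converted libraries lowest. Jun was 2.4-fold lower in converted than in resident (log2 -1.27 ± 0.18 SE, adjusted p = 0.00419) and 1.66-fold lower than in monocyte-derived libraries (adjusted p = 0.00574). In resident over monocyte-derived libraries it was 1.44-fold higher (adjusted p = 0.0271), a call that ended without resident library 2 or 3 or monocyte-derived library 1 or 2 (adjusted p = 0.0555 to 0.0799). In these data the reads of an overlapping antisense gene, Junos, which shares 7.28% of the exon bases of Jun, averaged 0.982, 1.06 and 11.5 CPM in converted, resident and monocyte-derived libraries.

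Junb, an AP-1 subunit that can oppose JUN, had 445, 413 and 544 CPM in converted, 813, 719 and 740 CPM in resident and 529, 451 and 440 CPM in monocyte-derived libraries. Only the resident libraries stood apart. Junb was 1.62-fold lower in converted than in resident libraries (log2 -0.70 ± 0.12 SE, adjusted p = 0.00929, and 0.0506 without resident library 1) and 1.6-fold higher in resident than in monocyte-derived ones (adjusted p = 0.000984). Its log2 difference between converted and monocyte-derived libraries was -0.02 ± 0.12 SE (adjusted p = 0.907). Jund, the most constant member of the family in many cells, had 109, 88.6 and 118 CPM in converted, 181, 184 and 200 CPM in resident and 192, 222 and 206 CPM in monocyte-derived libraries. Here it was the converted libraries that stood apart, 1.79-fold below resident (log2 -0.84 ± 0.11 SE, adjusted p = 0.00307) and 1.96-fold below monocyte-derived ones (log2 -0.97 ± 0.11 SE, adjusted p = 5.93e-05). An antisense gene, Gm11175, covers 52.6% of the exon bases of Jund and had no read in any library. The strand setting of the counts is not stated, so reads in the shared bases may have been left out as ambiguous. The level of Jund is therefore uncertain.

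Atf3, a stress-induced factor that restrains inflammatory genes in macrophages, had 94.9, 54.4 and 69.8 CPM in converted, 79.8, 74.6 and 82.5 CPM in resident and 122, 357 and 391 CPM in monocyte-derived libraries. All monocyte-derived libraries lay above the rest, but library 1 of that group was far below its other 2. Atf3 was 3.97-fold lower in converted (log2 -1.99 ± 0.38 SE, adjusted p = 0.00182) and 3.67-fold lower in resident than in monocyte-derived libraries (log2 -1.88 ± 0.38 SE, adjusted p = 0.00253). Converted and resident libraries overlapped (log2 -0.11 ± 0.37 SE, adjusted p = 0.899).

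The EGR zinc finger factors differed in direction in resident over monocyte-derived libraries, and both were lower in converted than in monocyte-derived ones. Egr1, the best known target of SRF, had 16.4, 6.36 and 13 CPM in converted, 137, 148 and 141 CPM in resident and 51.8, 40.2 and 50.6 CPM in monocyte-derived libraries. The groups did not overlap, and converted libraries were lowest. Egr1 was 11.9-fold lower in converted than in resident libraries (log2 -3.57 ± 0.28 SE, adjusted p = 0.000612), the largest fold of the set in that comparison. It was 3.98-fold lower in converted (adjusted p = 0.000237) and 2.99-fold higher in resident than in monocyte-derived libraries (adjusted p = 0.000716).

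Egr2 (ENSMUSG00000037868, chr10:67535475-67542188, plus strand), which in mouse macrophages is induced by IL-4, had 1.74, 1.31 and 5.06 CPM in converted, 5.23, 7.08 and 5.58 CPM in resident and 153, 168 and 209 CPM in monocyte-derived libraries. All mice had received IL-4 complexes. The monocyte-derived libraries lay far above all others. Egr2 was 66-fold lower in converted (log2 -6.04 ± 0.40 SE, adjusted p = 2.43e-06) and 29.6-fold lower in resident than in monocyte-derived libraries (log2 -4.89 ± 0.37 SE, adjusted p = 5.88e-06). Converted over resident gave a log2 of -1.16 ± 0.40 SE (adjusted p = 0.135), which passed with DESeq2 (0.032) and without converted library 3 (0.00853). Egr3 was too sparse to test, with 0, 1 and 1 reads in converted, 0, 1 and 1 reads in resident and 1, 3 and 10 reads in monocyte-derived libraries.

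The NR4A genes encode nuclear receptors that work without a known hormone and that limit inflammation in macrophages. Nr4a1, which Ly6C-low monocytes need, had 16.4, 11.3 and 19.6 CPM in converted, 13, 18.2 and 14.1 CPM in resident and 15.8, 41.3 and 42 CPM in monocyte-derived libraries. Monocyte-derived library 1 lay among the libraries of the other groups. Nr4a1 was 2.09-fold lower in converted (adjusted p = 0.0288) and 2.18-fold lower in resident than in monocyte-derived libraries (adjusted p = 0.0228). Both calls ended without monocyte-derived library 2 or 3, with limma-voom and with no low-count filter. The call in converted libraries also ended without converted library 1 or 2 and in a fit of these 2 groups (adjusted p = 0.06 to 0.127), and the call in resident libraries without resident library 1 or 3 (adjusted p = 0.057 to 0.103). Nr4a2 had 0.897, 1.05 and 1.18 CPM in converted, 2.09, 1.84 and 2.1 CPM in resident and 2.45, 4.34 and 5.31 CPM in monocyte-derived libraries. The 3 groups did not overlap. Nr4a2 was 3.84-fold lower in converted (adjusted p = 0.000597) and 2-fold lower in resident than in monocyte-derived libraries (adjusted p = 0.0177). The resident call ended without resident library 1 or 2 or monocyte-derived library 3 (adjusted p = 0.05 to 0.0647). Converted over resident had a log2 of -0.95 ± 0.32 SE for Nr4a2 (adjusted p = 0.126), which passed without monocyte-derived library 1 (0.0352) and in a fit of these 2 groups (0.0278). Nr4a3 was not tested, with 2, 0 and 3 reads in converted, 1, 3 and 0 reads in resident and 19, 14 and 5 reads in monocyte-derived libraries.

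**Figure D2:**
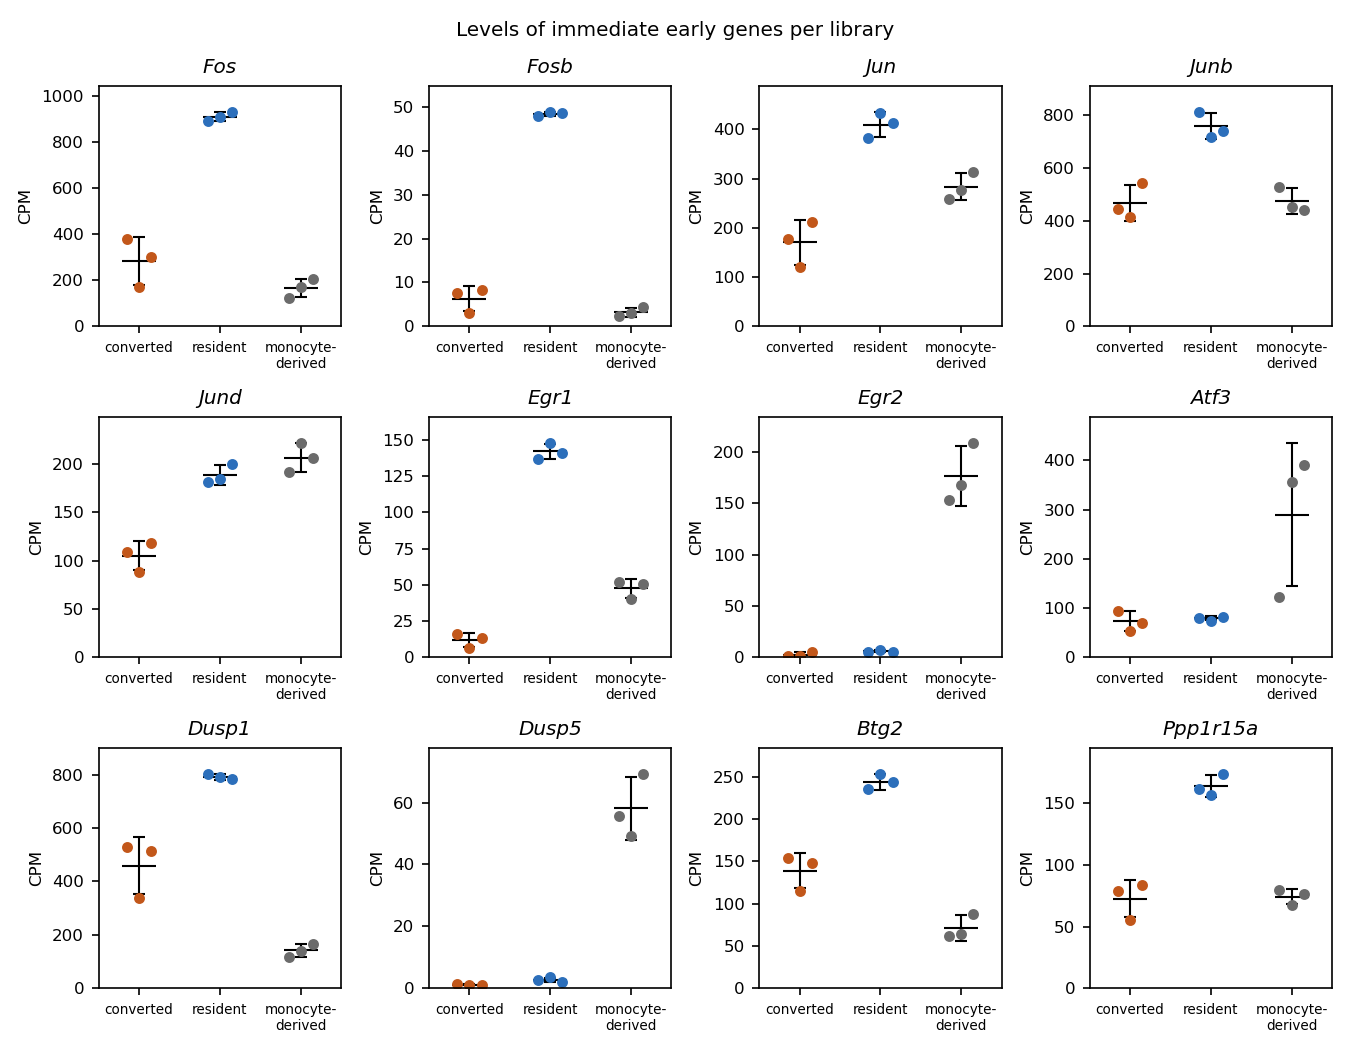
CPM (y axis from 0, a separate scale per gene) of 12 immediate early genes in each library, with the mean (long bar) and SD (error bar) of the 3 libraries of each group. Fos, Fosb, Jun, Junb, Egr1, Dusp1, Btg2 and Ppp1r15a are highest in all 3 resident libraries, while Egr2, Atf3 and Dusp5 are highest in all 3 monocyte-derived libraries.

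The genes named for immediate early response were lower in converted than in resident libraries, 2 of the 3 past the threshold. Ier2, a small nuclear protein, had 137, 113 and 144 CPM in converted, 259, 251 and 247 CPM in resident and 170, 120 and 115 CPM in monocyte-derived libraries. Resident libraries stood above both others, which overlapped. Ier2 was 1.92-fold lower in converted than in resident libraries (log2 -0.94 ± 0.15 SE, adjusted p = 0.00698) and 1.87-fold higher in resident than in monocyte-derived ones (adjusted p = 0.000664). Its log2 difference between converted and monocyte-derived libraries was -0.04 ± 0.15 SE (adjusted p = 0.847). Ier3, which protects cells from death signals, had 50.1, 42.1 and 52.8 CPM in converted, 70.9, 71.8 and 82.7 CPM in resident and 90.1, 83.5 and 103 CPM in monocyte-derived libraries. The 3 groups did not overlap, with converted libraries lowest. It was 1.55-fold lower in converted than in resident (adjusted p = 0.0121, and 0.0679 without resident library 3) and 1.91-fold lower than in monocyte-derived libraries (adjusted p = 0.000109). Resident over monocyte-derived gave a log2 of -0.29 ± 0.11 SE for Ier3 (adjusted p = 0.0545), which passed without converted library 2, resident library 3 or monocyte-derived library 2 (adjusted p = 0.0354 to 0.0484). Ier5, which in mouse and human cells assists HSF1, had 103, 89.4 and 82.7 CPM in converted, 126, 116 and 119 CPM in resident and 128, 114 and 136 CPM in monocyte-derived libraries. It was 1.38-fold lower in converted than in monocyte-derived libraries (adjusted p = 0.00355). For resident over monocyte-derived libraries the log2 of Ier5 was -0.07 ± 0.10 SE (adjusted p = 0.6). Against resident libraries the log2 of Ier5 was -0.39 ± 0.10 SE at an adjusted p of 0.0501, which passed under 8 other settings, among them DESeq2 and limma-voom, and without converted library 1 or any monocyte-derived library (adjusted p = 0.0119 to 0.0476).

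Dual-specificity phosphatases switch MAP kinases off, and the 3 in the set had 3 different patterns. Dusp1 (ENSMUSG00000024190), the main brake on p38 and JNK in macrophages, had 527, 337 and 514 CPM in converted, 803, 789 and 783 CPM in resident and 119, 141 and 167 CPM in monocyte-derived libraries. The groups did not overlap, with resident libraries highest and monocyte-derived lowest. Dusp1 was 3.23-fold higher in converted (log2 1.69 ± 0.18 SE, adjusted p = 3.58e-05) and 5.57-fold higher in resident than in monocyte-derived libraries (log2 2.48 ± 0.18 SE, adjusted p = 3.59e-06). It was 1.72-fold lower in converted than in resident libraries (adjusted p = 0.0274), a call that ended without converted library 3 or any resident library (adjusted p = 0.0569 to 0.105).

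Dusp5 (ENSMUSG00000034765, chr19:53529109-53542431, plus strand), a nuclear phosphatase specific for ERK, had 1.35, 1.1 and 1.01 CPM in converted, 2.53, 3.51 and 2.2 CPM in resident and 55.8, 49.3 and 69.3 CPM in monocyte-derived libraries. Every monocyte-derived library was far above the others. Dusp5 was 49.9-fold lower in converted (log2 -5.64 ± 0.22 SE, adjusted p = 7.37e-08) and 21.1-fold lower in resident than in monocyte-derived libraries (log2 -4.40 ± 0.20 SE, adjusted p = 1.8e-07). It was 2.36-fold lower in converted than in resident libraries (adjusted p = 0.0175), a call that ended without converted library 2 or 3 or resident library 1 or 2 and with limma-voom (adjusted p = 0.0521 to 0.107). An annotated antisense gene overlaps 22.1% of the exon bases of Dusp5. Dusp2, a nuclear phosphatase of immune cells, had 0.797, 1.63 and 1.63 CPM in converted, 5.56, 6.82 and 7.88 CPM in resident and 6.88, 4.86 and 5.37 CPM in monocyte-derived libraries. Converted libraries lay below all others. Dusp2 was 5-fold lower in converted than in resident (log2 -2.32 ± 0.29 SE, adjusted p = 0.00271) and 4.23-fold lower than in monocyte-derived libraries (adjusted p = 0.000248). Resident over monocyte-derived had a log2 of 0.24 ± 0.26 SE (adjusted p = 0.468).

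The promoters of Dusp1 and Dusp5 are shown because these genes had the largest folds of the 3 phosphatases in opposite directions against monocyte-derived libraries. The Dusp1 window (RefSeq, GRCm38.p6, chr17:26508423-26508722, minus strand) holds the full CREB site TGACGTCA, in capitals, 143 bases upstream of the start. The Dusp5 window (chr19:53528895-53529194, plus strand) holds 2 adjoining CArG boxes, the site of SRF, in capitals, 82 and 72 bases upstream. The CREB core TGACG stands in both windows, in that of Dusp5 on the other strand, as CGTCA 55 bases upstream and not in capitals.

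Dusp1: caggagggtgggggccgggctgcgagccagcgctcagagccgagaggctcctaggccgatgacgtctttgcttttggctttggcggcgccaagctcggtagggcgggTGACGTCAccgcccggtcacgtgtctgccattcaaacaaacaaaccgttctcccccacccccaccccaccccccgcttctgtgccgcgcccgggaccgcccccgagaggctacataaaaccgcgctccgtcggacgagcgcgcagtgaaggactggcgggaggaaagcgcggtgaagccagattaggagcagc
Dusp5: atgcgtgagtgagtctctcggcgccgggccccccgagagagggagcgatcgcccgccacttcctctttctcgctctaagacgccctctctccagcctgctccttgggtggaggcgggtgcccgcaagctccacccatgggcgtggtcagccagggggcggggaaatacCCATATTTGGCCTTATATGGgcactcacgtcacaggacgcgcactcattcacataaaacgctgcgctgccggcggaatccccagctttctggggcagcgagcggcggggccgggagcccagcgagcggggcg

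The next members act on messenger RNA, NF-kB and cytokine signals. Zfp36, which encodes tristetraprolin and sends cytokine mRNAs to decay, had 525, 366 and 458 CPM in converted, 659, 659 and 692 CPM in resident and 418, 327 and 347 CPM in monocyte-derived libraries. Resident libraries were above all others. Zfp36 was 1.84-fold higher in resident than in monocyte-derived libraries (adjusted p = 0.000435) and 1.49-fold lower in converted than in resident ones (adjusted p = 0.036). The second of these calls ended without converted library 2 or 3 or any resident library (adjusted p = 0.0915 to 0.145). Converted over monocyte-derived gave a log2 of 0.31 ± 0.13 SE for Zfp36 (adjusted p = 0.0843), which passed without converted library 2 or monocyte-derived library 1 and with no low-count filter (adjusted p = 0.0159 to 0.0392).

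Nfkbia, which encodes the inhibitor that holds NF-kB in the cytoplasm, had 308, 252 and 332 CPM in converted, 374, 387 and 366 CPM in resident and 159, 170 and 149 CPM in monocyte-derived libraries. The groups did not overlap, with monocyte-derived libraries lowest. Nfkbia was 1.86-fold higher in converted (log2 0.90 ± 0.10 SE, adjusted p = 7.32e-05) and 2.36-fold higher in resident than in monocyte-derived libraries (log2 1.24 ± 0.11 SE, adjusted p = 9.1e-06). Its log2 difference between converted and resident libraries was -0.34 ± 0.10 SE (adjusted p = 0.0928, and 0.033 in a fit of these 2 groups). Nfkbiz, a nuclear IkB protein that several secondary response genes need, had 14.8, 6.04 and 21.5 CPM in converted, 25.4, 25.5 and 26.2 CPM in resident and 5.33, 7.23 and 5.83 CPM in monocyte-derived libraries. Converted library 2 lay within the monocyte-derived range. Nfkbiz was 4.19-fold higher in resident (adjusted p = 0.00133) and 2.3-fold higher in converted than in monocyte-derived libraries (adjusted p = 0.0222). The converted call ended without converted library 1 or 3 or monocyte-derived library 1 or 3, and with limma-voom, no low-count filter or a fit of these 2 groups (adjusted p = 0.0532 to 0.0808). For converted over resident libraries the log2 of Nfkbiz was -0.87 ± 0.35 SE (adjusted p = 0.198).

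Socs3, which stops cytokine receptors that signal through STAT3, had 82, 115 and 141 CPM in converted, 174, 204 and 166 CPM in resident and 55.4, 70.3 and 63.2 CPM in monocyte-derived libraries. The groups did not overlap. Socs3 was 1.79-fold higher in converted (adjusted p = 0.00342) and 2.88-fold higher in resident than in monocyte-derived libraries (adjusted p = 9.76e-05). Converted over resident gave a log2 of -0.69 ± 0.18 SE (adjusted p = 0.055), which passed with DESeq2, limma-voom, upper-quartile scaling, a fit of these 2 groups, and without converted library 3 or monocyte-derived library 1 (adjusted p = 0.0107 to 0.0478).

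Genes of growth arrest and of recovery from stress moved in both directions. Btg2, which slows the cell cycle and recruits mRNA deadenylation, had 154, 115 and 148 CPM in converted, 235, 253 and 244 CPM in resident and 61.4, 63.7 and 88.3 CPM in monocyte-derived libraries. The groups did not overlap. Btg2 was 1.95-fold higher in converted (adjusted p = 0.000473) and 3.43-fold higher in resident than in monocyte-derived libraries (adjusted p = 9.89e-06), and 1.76-fold lower in converted than in resident ones (adjusted p = 0.0129). The last call ended without resident library 2 or 3 (adjusted p = 0.0518 and 0.0624). Its relative Btg1 had 50.2, 44.2 and 57.8 CPM in converted, 77.2, 81.1 and 94.5 CPM in resident and 114, 180 and 251 CPM in monocyte-derived libraries, so the relatives differed in direction against monocyte-derived libraries but not between converted and resident ones. Btg1 was 3.58-fold lower in converted (adjusted p = 0.000221) and 2.15-fold lower in resident than in monocyte-derived libraries (adjusted p = 0.00394). Converted over resident gave a log2 of -0.73 ± 0.24 SE for Btg1 (adjusted p = 0.12), which passed with DESeq2, in a fit of these 2 groups and without monocyte-derived library 1 or 3 (adjusted p = 0.00277 to 0.0409).

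Ppp1r15a, which encodes GADD34 and restores translation after the integrated stress response, had 78.8, 55.4 and 83.9 CPM in converted, 162, 157 and 174 CPM in resident and 79.4, 67.5 and 76.1 CPM in monocyte-derived libraries. Resident libraries stood apart and the other groups overlapped. Ppp1r15a was 2.26-fold lower in converted than in resident libraries (log2 -1.17 ± 0.14 SE, adjusted p = 0.0026) and 2.21-fold higher in resident than in monocyte-derived ones (adjusted p = 0.000116). Its log2 difference between converted and monocyte-derived libraries was -0.03 ± 0.14 SE (adjusted p = 0.87). Gadd45b, which activates the kinase MEKK4 upstream of p38 and JNK, had 1.94, 1.68 and 1.97 CPM in converted, 4.84, 3.04 and 3.28 CPM in resident and 5.39, 15.8 and 13.9 CPM in monocyte-derived libraries. Monocyte-derived library 1 was close to resident library 1. Gadd45b was 6.24-fold lower in converted (adjusted p = 0.00032) and 3.14-fold lower in resident than in monocyte-derived libraries (adjusted p = 0.00384). Converted over resident had a log2 of -0.99 ± 0.39 SE (adjusted p = 0.187), which passed without monocyte-derived library 1 (0.02) and in a fit of these 2 groups (0.0195). Sertad1, a cofactor of E2F and CDK4, had 12.5, 14.3 and 16.1 CPM in converted, 25.2, 20.8 and 25 CPM in resident and 65.9, 56.5 and 51.5 CPM in monocyte-derived libraries. Its groups stood in the same order as those of Gadd45b and did not overlap. Sertad1 was 4.06-fold lower in converted (adjusted p = 2.15e-06) and 2.45-fold lower in resident than in monocyte-derived libraries (adjusted p = 3.52e-05). It was also 1.65-fold lower in converted than in resident libraries (adjusted p = 0.0149), which ended without converted library 1 or resident library 1 or 3 (adjusted p = 0.068 to 0.0776).

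Btg2 and Ppp1r15a share with Dusp1 the full CREB site TGACGTCA, in capitals in the RefSeq windows below (GRCm38.p6, minus strand). It lies 166 bases upstream of the start of Btg2 (chr1:134079106-134079405) and 12 bases upstream of the start of Ppp1r15a (chr7:45526219-45526518).

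Btg2: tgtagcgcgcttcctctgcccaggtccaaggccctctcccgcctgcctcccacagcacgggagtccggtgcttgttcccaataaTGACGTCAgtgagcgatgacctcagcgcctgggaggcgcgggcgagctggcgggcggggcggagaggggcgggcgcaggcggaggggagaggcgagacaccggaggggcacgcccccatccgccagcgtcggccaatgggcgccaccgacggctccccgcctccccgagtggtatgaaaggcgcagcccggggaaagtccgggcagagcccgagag
Ppp1r15a: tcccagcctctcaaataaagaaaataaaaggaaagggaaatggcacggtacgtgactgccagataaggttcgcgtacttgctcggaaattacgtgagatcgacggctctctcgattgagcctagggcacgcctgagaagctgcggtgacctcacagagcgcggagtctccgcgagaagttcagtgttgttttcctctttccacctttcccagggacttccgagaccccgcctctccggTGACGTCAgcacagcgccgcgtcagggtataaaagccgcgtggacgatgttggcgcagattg

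None of the 6 heat shock genes was called between converted and resident libraries, where 6.07% of all tested genes were called, and their log2 differences lay between -0.18 and 0.23. Hspa1a and Hspa1b, the stress-inducible HSP70 pair, overlapped between all 3 groups. Hspa1a had 28.1, 43 and 55.1 CPM in converted, 31.6, 55.8 and 55.7 CPM in resident and 11.6, 33 and 73.6 CPM in monocyte-derived libraries. Hspa1b had 57.1, 85.2 and 91.4 CPM in converted, 57.9, 90.8 and 89.3 CPM in resident and 20.4, 58.5 and 156 CPM in monocyte-derived libraries. For both genes library 1 was lowest in each group and monocyte-derived library 3 was highest of all. In the 3 comparisons the log2 differences lay between -0.18 and 0.28 for Hspa1a (SE 0.54, adjusted p = 0.691 to 0.892) and between -0.03 and 0.02 for Hspa1b (SE 0.56, adjusted p = 0.98 to 0.994).

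The pair lies 12.8 kb apart on chromosome 17 (Hspa1a chr17:34969190-34972156 and Hspa1b chr17:34956436-34959238, minus strand). Of all runs of 50 bases in their GENCODE transcripts, 58.8% of those of Hspa1a also occur in Hspa1b, so reads can be shared between them and the counts of each are uncertain. The ratio of Hspa1a to Hspa1b reads was 0.493, 0.505 and 0.603 in converted, 0.545, 0.614 and 0.624 in resident and 0.568, 0.563 and 0.471 in monocyte-derived libraries. Their promoters are shown to let the copies be compared: 296 of 300 bases are identical, and capitals mark the 4 bases that differ (RefSeq, GRCm38.p6, Hspa1a chr17:34972107-34972406 and Hspa1b chr17:34959189-34959488, minus strand). Both hold the heat shock element core GAAGATTC 104 bases upstream of the start.

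Hspa1a: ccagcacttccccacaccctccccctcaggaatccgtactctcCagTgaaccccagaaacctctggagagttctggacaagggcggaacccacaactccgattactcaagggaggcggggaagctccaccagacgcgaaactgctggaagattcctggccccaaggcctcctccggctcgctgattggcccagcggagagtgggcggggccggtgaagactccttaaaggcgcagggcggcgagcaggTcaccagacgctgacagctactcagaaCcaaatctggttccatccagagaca
Hspa1b: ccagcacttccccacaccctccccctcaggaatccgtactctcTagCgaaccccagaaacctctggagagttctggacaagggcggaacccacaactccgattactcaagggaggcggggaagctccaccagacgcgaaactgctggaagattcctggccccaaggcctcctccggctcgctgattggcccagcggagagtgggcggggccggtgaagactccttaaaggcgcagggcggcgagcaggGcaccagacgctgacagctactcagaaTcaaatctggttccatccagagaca

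The other chaperones were called only against monocyte-derived libraries, or not at all. Dnajb1, the HSP40 partner that feeds clients to HSP70, had 104, 92.8 and 87.5 CPM in converted, 111, 111 and 98.7 CPM in resident and 59.2, 57.6 and 69.1 CPM in monocyte-derived libraries. Monocyte-derived libraries lay below the rest. Dnajb1 was 1.53-fold higher in converted (log2 0.61 ± 0.10 SE, adjusted p = 0.000645) and 1.72-fold higher in resident than in monocyte-derived libraries (adjusted p = 0.000135). Converted over resident had a log2 of -0.17 ± 0.10 SE for Dnajb1 (adjusted p = 0.368). Hsph1, the HSP110 chaperone that reloads HSP70 with ATP, had 49.8, 36.6 and 40.6 CPM in converted, 38.5, 37.8 and 33.2 CPM in resident and 70.5, 83.8 and 99.6 CPM in monocyte-derived libraries. Monocyte-derived libraries were highest. Hsph1 was 2-fold lower in converted (adjusted p = 0.000343) and 2.32-fold lower in resident than in monocyte-derived libraries (adjusted p = 0.000105). Converted over resident had a log2 of 0.21 ± 0.15 SE for Hsph1 (adjusted p = 0.464).

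Hspa8, the constitutive HSC70 chaperone, had 603, 432 and 507 CPM in converted, 437, 474 and 401 CPM in resident and 324, 434 and 360 CPM in monocyte-derived libraries. It was 1.38-fold higher in converted than in monocyte-derived libraries (adjusted p = 0.0204), whose ranges overlap, a call that ended without converted library 1 or monocyte-derived library 3 (adjusted p = 0.08 and 0.0564). Resident over monocyte-derived gave a log2 of 0.23 ± 0.14 SE for Hspa8 (adjusted p = 0.202, and 0.0466 without monocyte-derived library 2), and converted over resident 0.23 ± 0.14 SE (adjusted p = 0.399). Hsp90aa1, the inducible HSP90 isoform, had 199, 207 and 177 CPM in converted, 170, 168 and 171 CPM in resident and 181, 196 and 234 CPM in monocyte-derived libraries. It was the gene whose converted libraries all lay above the resident ones, at a log2 of 0.20 ± 0.10 SE (adjusted p = 0.318). Resident over monocyte-derived gave -0.27 ± 0.10 SE for Hsp90aa1 (adjusted p = 0.0518), which passed with protein-coding genes alone (0.0492) and without monocyte-derived library 1 (0.0101), and converted over monocyte-derived gave -0.07 ± 0.10 SE (adjusted p = 0.597).

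**Figure D3:**
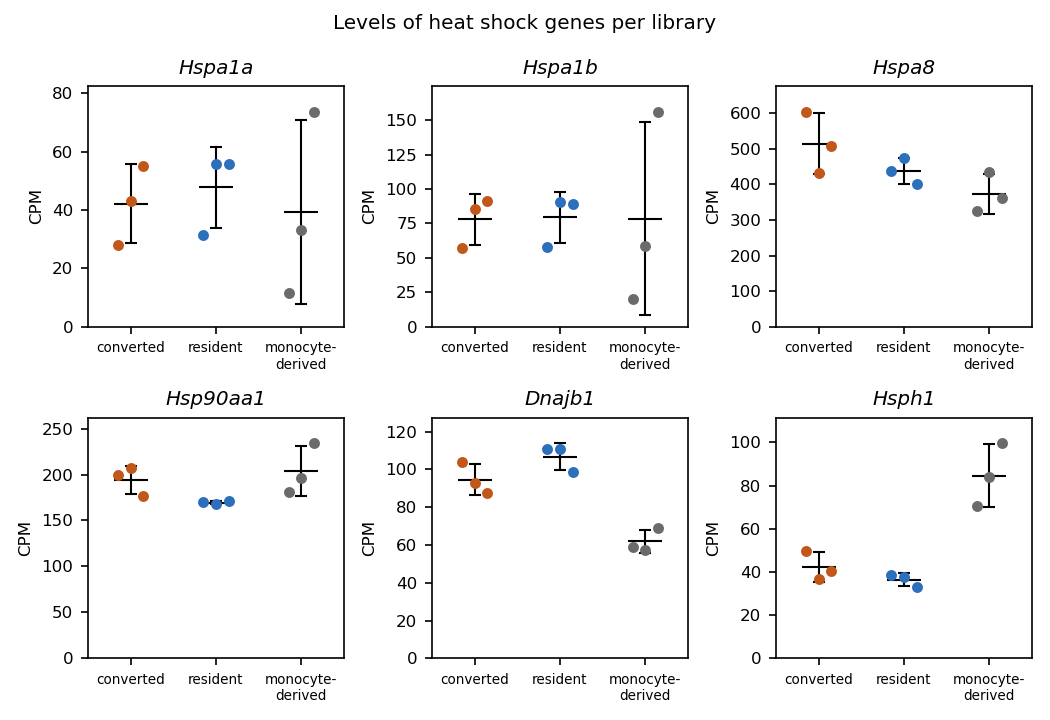
CPM (y axis from 0, a separate scale per gene) of the 6 heat shock genes in each library, with the mean (long bar) and SD (error bar) of the 3 libraries of each group. Hspa1a and Hspa1b spread widely within every group, from 20.4 to 156 CPM for Hspa1b in monocyte-derived libraries, while Dnajb1 is lowest and Hsph1 highest in the monocyte-derived libraries.

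Across the set the resident libraries were nearly alike and the converted ones were not. The median SD of log2 (CPM + 1) between libraries was 0.25 in converted, 0.09 in resident and 0.22 in monocyte-derived libraries over the 32 genes, and 0.13, 0.10 and 0.20 over all tested genes. Fos had a coefficient of variation of 37% in converted, 2.2% in resident and 24.5% in monocyte-derived libraries. Converted library 2 was the lowest of its group for 21 of the 32 genes and converted library 3 the highest for 20. Monocyte-derived library 1 was the lowest of its group for 19 genes and library 3 the highest for 18. Summed over the 34 genes the level was 4365, 3357 and 4350 CPM in converted, 6435, 6552 and 6498 CPM in resident and 3797, 4197 and 4629 CPM in monocyte-derived libraries. Without converted library 2, converted over resident called 13 genes lower and 0 higher.

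**Figure D4:**
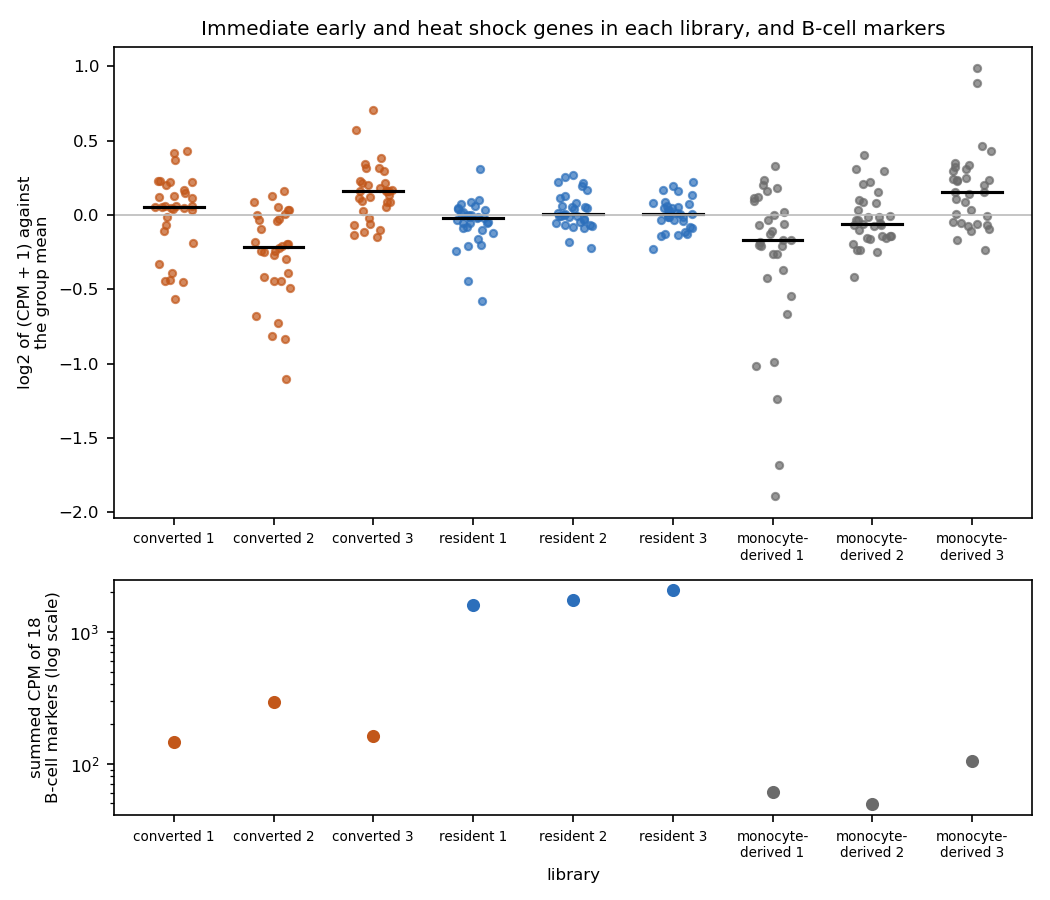
Upper panel: log2 (CPM + 1) of each of the 32 tested genes in each library minus log2 of the mean CPM of its group + 1 (y axis), 1 point per gene, with the median as a bar. Lower panel: summed CPM of 18 B-cell markers per library on a log axis. The resident points lie close to 0, converted library 2 has a median of -0.21 and converted library 3 of 0.16, and the B-cell markers are highest in the 3 resident libraries (1600 to 2080 CPM).

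B-cell markers were higher in resident than in converted libraries, as most genes of the set were, but within the converted group they did not move together. Converted library 2 had the highest B-cell sum of its group (293 CPM, against 147 and 161 CPM in libraries 1 and 3). It had the lowest summed level of the set (3357 CPM, against 4365 and 4350 CPM). With the log2 of the summed B-cell markers as a covariate, 16, 0 and 0 of the 32 genes were called in converted over monocyte-derived, resident over monocyte-derived and converted over resident libraries, in place of 25, 24 and 15. Each of those 25, 24 and 15 genes kept its direction with the covariate. The median SE over the 32 genes was 0.32, 0.93 and 0.67 with the covariate, in place of 0.17, 0.18 and 0.17. Every resident library had a higher B-cell sum than any other library, so the covariate cannot be separated from group. Egr1 had a log2 of -4.84 in converted over resident libraries with the covariate (adjusted p = 0.326), Fosb -4.10 (adjusted p = 0.453) and Fos -2.53 (adjusted p = 0.53). The smallest log2 of the 15 was that of Dusp5, at -0.44 (adjusted p = 0.897). Over all 13223 genes, the covariate left 2966, 80 and 0 calls in the 3 comparisons. Of the 105, 114 and 14 calls among 171 genes of the related lists described below, 50, 0 and 0 also held with the covariate, and 103, 93 and 14 kept their direction. The part of the other marker lists in these differences was not tested.

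Levels can be set beside each other only per length of transcript, as CPM per kb of annotated exon. On that scale Junb (203), Nfkbia (185), Dusp1 (139), Zfp36 (130) and Fos (121) led in converted libraries. In resident libraries the same 5 genes led in another order, Fos (387), Junb (329), Dusp1 (239), Nfkbia (233) and Zfp36 (193). In monocyte-derived libraries Junb (206), Atf3 (135), Jund (124), Zfp36 (105) and Nfkbia (99) led, and Fos stood at 70.7. The FOS partners lay far apart, since Fosb had a level of 1.01, 7.76 and 0.512 CPM per kb in converted, resident and monocyte-derived libraries. These levels are means over 3 libraries, and neighbours in the order were not tested against each other. That of Jund is uncertain because of its antisense gene.

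Promoter windows of 300 bases were held for 28 of the 34 genes, as 34 windows, and 9 motifs were searched on both strands. The full CREB site TGACGTCA stood in 3 of the 34 windows (8.82%, against 1.79% of 32851 mouse windows), those of Btg2, Dusp1 and Ppp1r15a. Its core TGACG, which every full site also contains, stood in 17 windows of 15 genes (50%, against 20.8%), among them Fos, Fosb, Junb, Atf3, Nr4a1 and Dnajb1. The CArG box stood in 6 windows (17.6%, against 1.63%), which belong to Egr2, Dusp5 and Zfp36. The EGR site GCGNGGGCG stood in 9 windows (26.5%, against 5.55%) and the NF-kB site in 9 (26.5%, against 8.46%), with Nfkbia and Ier3 among the genes that hold the NF-kB site. The heat shock element cores GAANNTTC and TTCNNGAA stood in 17.6% and 11.8% of windows, against 7.86% and 8.52%, and Hsph1 held both. The AP-1 site TGANTCA stood in none, against 7.81%, and TATAAA in 20.6%, against 13.6%. Several windows belong to the same gene, and a match of letters in these windows says nothing of what is bound in these cells.

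Other immediate early genes were listed to set beside the members, 37 in all with 36 tested. In converted over resident libraries 4 were lower and 0 higher, beside 6.07% of all tested genes called, with a median log2 of -0.22 (0.01 over all genes). At an unadjusted p under 0.05, 0 were higher and 9 lower, DESeq2 gave 0 and 7, and limma-voom 0 and 4. Nfil3, a leucine zipper factor, averaged 103.7 ± 10.4 CPM in converted and 159.2 ± 2.28 CPM in resident libraries (SD, n = 3 each), and was 1.54-fold lower (adjusted p = 0.00313). Irf1, an interferon-induced factor, averaged 49.4 ± 6.83 and 69.1 ± 7.47 CPM in converted and resident libraries (SD, n = 3 each; adjusted p = 0.0425, and 0.0539 to 0.194 without any converted or resident library). In converted over monocyte-derived libraries 9 were higher and 17 lower, and in resident over monocyte-derived 12 and 17, beside 50.7% of all tested genes called in each. Klf2, which keeps macrophages quiescent, averaged 632.6 ± 114, 676.9 ± 11.4 and 219.9 ± 41.9 CPM in converted, resident and monocyte-derived libraries (SD, n = 3 each). It was 2.88-fold higher in converted (adjusted p = 3.09e-05) and 3.08-fold higher in resident than in monocyte-derived libraries (adjusted p = 2.07e-05). Errfi1, a feedback inhibitor of the EGF receptor, was lower by 15.8-fold in converted (adjusted p = 6.76e-07) and 13.6-fold in resident than in monocyte-derived libraries (adjusted p = 1.02e-06).

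Of 30 kinases and factors upstream of the set 1, the kinase RSK2 gene Rps6ka3, was higher and 0 lower in converted over resident libraries, at 1.3-fold and an adjusted p of 0.0324 (0.059 to 0.151 without any converted library, resident library 2 or 3, with upper-quartile scaling or with a stricter filter). Beside the 0 lower, an unadjusted p under 0.05 gave 6 higher and 0 lower, DESeq2 3 and 0, and limma-voom 1 and 0. Over all tested genes 6.07% were called in that comparison. In converted over monocyte-derived libraries 6 were higher and 13 lower, and in resident over monocyte-derived 5 and 15, beside 50.7% of all tested genes called in each. Mapk3, which encodes ERK1, averaged 38.1 ± 1.25, 37.8 ± 1.22 and 126.7 ± 6.27 CPM in converted, resident and monocyte-derived libraries (SD, n = 3 each). It was 3.33-fold lower in converted (adjusted p = 1.13e-07) and 3.35-fold lower in resident than in monocyte-derived libraries (adjusted p = 1.36e-07). Mapk9, which encodes JNK2, was 1.65-fold higher in converted and 1.47-fold higher in resident than in monocyte-derived libraries (adjusted p = 3.47e-05 and 0.000179).

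Among 12 tested further brakes on MAP kinases, 1 was higher and 6 lower in converted over monocyte-derived libraries, 1 and 8 in resident over monocyte-derived, and 1 and 0 in converted over resident, the last also by DESeq2, limma-voom and an unadjusted p under 0.05. The share of all tested genes called was 50.7%, 50.7% and 6.07% in the same order of comparisons. Spred1, an inhibitor of RAS signalling, averaged 81.3 ± 7.52, 51.2 ± 4.59 and 212 ± 21 CPM in converted, resident and monocyte-derived libraries (SD, n = 3 each). It was 1.59-fold higher in converted than in resident libraries (adjusted p = 0.0075), and 2.61-fold and 4.14-fold lower in converted and resident than in monocyte-derived ones (adjusted p = 4.76e-06 and 4.57e-07). Dusp10, a phosphatase of p38 and JNK, was 1.94-fold higher in resident than in monocyte-derived libraries (adjusted p = 0.00641).

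Of 16 NF-kB family and feedback genes 0 were higher and 3 lower in converted over resident libraries, 0 and 11 in converted over monocyte-derived and 2 and 9 in resident over monocyte-derived. Beside the 0, unadjusted p under 0.05, DESeq2 and limma-voom also gave 0 higher in the comparisons of converted libraries. Of all tested genes 6.07% were called in converted over resident and 50.7% in each comparison with monocyte-derived libraries. Nfkbid, a nuclear IkB protein, averaged 14.8 ± 2.25 CPM in converted and 24.4 ± 1.47 CPM in resident libraries (SD, n = 3 each), 1.66-fold lower (adjusted p = 0.0116, and 0.0688 without resident library 3). Tnip3, a partner of the A20 ubiquitin editor, was 17-fold lower in converted and 16.9-fold lower in resident than in monocyte-derived libraries (adjusted p = 6.32e-06 and 6.54e-06), against the course of Nfkbia and Nfkbiz. The other SOCS genes also ran against Socs3: of 7, 0 were higher and 6 lower in converted over monocyte-derived libraries, and 0 and 6 in resident over monocyte-derived, by edgeR, DESeq2 and limma-voom alike, with 0 higher and 6 lower at an unadjusted p under 0.05. In each of these comparisons 50.7% of all tested genes were called. Cish, induced by STAT5, was 10.7-fold lower in converted and 3.78-fold lower in resident than in monocyte-derived libraries (adjusted p = 0.000178 and 0.00341), and Socs1, an inhibitor of JAK kinases, 6.58-fold and 4.95-fold lower (adjusted p = 0.000241 and 0.000588).

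Of 33 further heat shock genes 2 were higher and 0 lower in converted over resident libraries, 10 and 10 in converted over monocyte-derived and 8 and 16 in resident over monocyte-derived. Beside the 0 lower, an unadjusted p under 0.05 gave 7 higher and 2 lower, DESeq2 4 and 0, and limma-voom 2 and 0. All tested genes were called at 6.07% in converted over resident and at 50.7% in each comparison with monocyte-derived libraries. Dnajb6, an HSP40 that keeps proteins from aggregating, averaged 204.4 ± 15, 204.8 ± 11.1 and 79.8 ± 5.6 CPM in converted, resident and monocyte-derived libraries (SD, n = 3 each). It was 2.56-fold higher in converted and 2.57-fold higher in resident than in monocyte-derived libraries (adjusted p = 1.44e-06 and 1.62e-06). Hspa9, the HSP70 of mitochondria, was 1.55-fold lower in converted and 1.62-fold lower in resident than in monocyte-derived libraries (adjusted p = 0.000639 and 0.000349), and Hsf1, the heat shock factor itself, 1.4-fold lower in converted ones (adjusted p = 0.00309). Stip1, the HSP70 to HSP90 adaptor, and Hspd1, the chaperonin HSP60, were 1.27-fold and 1.23-fold higher in converted than in resident libraries (adjusted p = 0.0385 and 0.045). The Stip1 call ended without converted library 1 or 2 or any resident library and under 2 other settings (adjusted p = 0.0513 to 0.18), and the Hspd1 call when any library other than monocyte-derived library 1 was left out and under 4 other settings (adjusted p = 0.0505 to 0.203).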

How the data were processed

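RNA of 9 libraries was counted per gene. The authors deposited unnormalized counts for each Ensembl gene, made with TopHat2 2.1.0 and HTSeq on GRCm38, per the submitters' processing notes. No source used here states the gene annotation, the strand setting or the treatment of reads that map to several places. Of 47729 identifiers 47224 were matched to GENCODE M21. Reads outside genes (4.02% to 5.66%) and ambiguous reads (4.47% to 4.68%) were left out of library sizes. Genes passed edgeR's filter at a minimum count of 10 (15 in total). The 9 libraries were fitted together with edgeR 4.0.16 in R 4.3.3 (TMM, robust quasi-likelihood test, 6 residual degrees of freedom), with Benjamini-Hochberg adjustment over 13223 genes. The procedure was tested on simulated data in which a small share of genes differed, in the converted group only. That simulation did not cover differences as broad as those against monocyte-derived libraries. A standard error is the absolute log2 fold change divided by the root of the F statistic. CPM were computed from the deposited counts on TMM-scaled library sizes. Alternatives were other scalings and filters, fits of 2 groups, protein-coding genes, a replicate block, a B-cell covariate, DESeq2 1.42.0, limma-voom 3.58.1 and each library left out. The members and lists were chosen with earlier results of these data known. All 34 members are named. Of each related list, called genes are named from the 2 with the largest fold change per comparison and direction at 20 CPM or more in the higher group. No pair of libraries agreed within sampling noise. The study's ATAC-seq was not analysed here.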

Additional observations from a re-analysis of the deposited data

How the results depend on the processing

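No called difference of the 32 tested members changed direction under any alternative tried. In converted over resident libraries 803 of all tested genes were called, against 397 with at least 10 CPM in 3 libraries (where fewer genes were tested), 2067 in fits of 2 groups, 1315 with DESeq2, 530 with a replicate block and 0 with the B-cell covariate, where 1180 genes had an unadjusted p under 0.05. Leaving out each library gave 245 to 1628. With the covariate 2966 genes were called in converted over monocyte-derived libraries, in place of 6703, and 80 in resident over monocyte-derived, in place of 6698. The members called with it were 16, 0 and 0. The B-cell sums nearly follow the groups, so these fits cannot separate the covariate from group. Beyond this, the cause of these changes was not tested. Leaving out each library, 21 to 26, 23 to 26 and 10 to 20 members were called in converted over monocyte-derived, resident over monocyte-derived and converted over resident libraries. Each such fit keeps 2 libraries in the reduced group. Same-numbered libraries did not deviate together over all tested genes (r = -0.09 to 0.07). With so few libraries a group this cannot exclude a shared day or batch, and the labels do not say whether the numbers pair the libraries. With the replicate block 24, 25 and 15 members were called. Under it the adjusted p was 0.0545 for Fos in converted over monocyte-derived, 0.0209 for Ier3 in resident over monocyte-derived, and 0.0518 for Dusp5 and 0.0459 for Socs3 in converted over resident libraries, and it changed no other call among the members. Of the related genes named, the block ended the calls of Irf1, Rps6ka3, Hspd1 and Stip1 in converted over resident libraries (adjusted p = 0.0905, 0.0607, 0.0934 and 0.0647). Depth limits the rarest members, Egr3 and Nr4a3, which had at most 10 and 19 reads in a library.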

Other observations

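Of 25 genes of the endoplasmic reticulum and integrated stress responses, which slow translation and raise folding capacity, 3 were higher and 10 lower in converted over monocyte-derived libraries, 1 and 12 in resident over monocyte-derived and 0 and 0 in converted over resident. Beside the last, an unadjusted p under 0.05 gave 2 higher and 4 lower, DESeq2 0 and 2, and limma-voom 0 and 0. The share of all tested genes called was 50.7% in each comparison with monocyte-derived libraries and 6.07% in converted over resident. Asns, the asparagine synthetase induced by ATF4, averaged 13.6 ± 9.84, 27.4 ± 5 and 351 ± 126 CPM in converted, resident and monocyte-derived libraries (SD, n = 3 each). It was 25.9-fold lower in converted (adjusted p = 0.000109) and 12.8-fold lower in resident than in monocyte-derived libraries (adjusted p = 0.000348). Ddit4, an inhibitor of mTORC1, averaged 1.14 ± 0.171 CPM in converted and 49.8 ± 34.2 CPM in monocyte-derived libraries (SD, n = 3 each), 43.4-fold lower (adjusted p = 2.25e-05).

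Among 10 relatives of Gadd45b, Sertad1, Btg1 and Btg2, 3 were higher and 2 lower in converted over monocyte-derived libraries, 4 and 1 in resident over monocyte-derived, and 0 and 2 in converted over resident (0 and 3 at an unadjusted p under 0.05, 0 and 2 with DESeq2 and limma-voom). Of all tested genes 50.7%, 50.7% and 6.07% were called in the same order of comparisons, so the first counts are near that share. Gadd45g took the opposite course to Gadd45b against monocyte-derived libraries. It averaged 38.7 ± 5.06, 78.9 ± 2.75 and 20.1 ± 3.48 CPM in converted, resident and monocyte-derived libraries (SD, n = 3 each). It was 1.92-fold higher in converted (adjusted p = 0.000316) and 3.92-fold higher in resident than in monocyte-derived libraries (adjusted p = 2.93e-06), and 2.04-fold lower in converted than in resident ones (adjusted p = 0.00309). All p-values are from edgeR's quasi-likelihood test over all genes.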
